A study of Homo sapiens with 9 samples.

Results

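The enzymes that build sterols and fatty acids, with a sterol carrier and a phosphatidate phosphatase of the same pathways, form a list of 33 genes chosen by name. The platform's probe table names 31 of them, on 71 probe sets, among 19775 genes with a probe set of their own. FDFT1 and ACSL3 were not analysed here. Of the rest, 27 passed the filter on dim signals and were tested among 12678 genes, 17 of them sterol steps and 10 fatty acid steps. CYP51A1, FADS1 and ELOVL1 lie on probe sets that also carry another symbol and were read from a fit over all probe sets, and ELOVL6 was too dim for the gene table.

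The cells were PANC-1, an established human line from a pancreatic carcinoma of ductal type. They had received BRD7552, a small molecule, for 72 h or for 6 h at a dose of 5 uM, or the solvent DMSO, with 3 arrays in each group. The labels give no exposure time for DMSO and do not say whether arrays of a group came from separate cultures, and every p therefore reflects sample-to-sample spread alone, which may be technical. Total RNA was hybridised to Affymetrix arrays, and the deposited values are probe set signals on a linear scale.

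Cholesterol is made from acetyl-CoA through mevalonate, isoprenoid diphosphates and squalene, and the ring made from squalene is then trimmed and rearranged by a series of membrane enzymes. Fatty acids are made from the same acetyl-CoA by carboxylation and chain building, and are then elongated, desaturated and activated. Many of these genes are driven by SREBP transcription factors, which are released from the endoplasmic reticulum when sterols are scarce and which act together with the factors NF-Y and Sp1 at promoters.

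All 4 keratins of simple epithelium, KRT7, KRT8, KRT18 and KRT19, lay above the filter on their mean over all arrays. Their summed signal was 25403 to 27161 at 72 h, 32243 to 32415 at 6 h and 32015 to 32776 in DMSO. By limma all 4 were lower at 72 h than in DMSO (adjusted p below 0.05), as were 18.3% of all genes tested. KRT7 fell most, to 0.477-fold (adjusted p = 0.000489). Above the filter lay 0 of 4 adipocyte markers, 0 of the 3 measured leukocyte markers, 1 of 4 hepatocyte markers (TTR) and 1 of the 2 measured acinar markers (CELA3A). The upper quartile of all probe sets was 97.5 and 99.7 on 72 h replicates 2 and 3, against 112 to 119 on the other arrays, and the 72 h arrays were also less alike (mean Spearman correlation of an array with its group 0.958 to 0.971, against 0.985 to 0.987 at 6 h and 0.989 to 0.990 in DMSO). The ratio of 3′ to 5′ signal of ACTB was 2.07 to 2.21 at 72 h, 1.74 to 2.05 at 6 h and 1.91 to 2.01 in DMSO. That of GAPDH was 1.34 to 1.39 at 72 h, 1.27 to 1.31 at 6 h and 1.31 to 1.35 in DMSO, so 72 h and DMSO overlapped. Where a call against DMSO depended on 72 h replicates 2 and 3, the value without them is given beside it.

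The promoter letters of the members, which the choice of genes did not use, were also read. RefSeq promoter windows (GRCh38.p14, 250 bases before to 50 after the start) were at hand for 29 members. The letters CCAAT, the core of the NF-Y box, were found on either strand in 23 of the 29 genes (79.3%), against 39.7% of all 27305 genes with a window, and GGGCGG, the core of the Sp1 box, in 93.1% against 48.3%. CCAAT was in 87.5% of the sterol genes and 69.2% of the fatty acid genes. A gene was counted if any of its windows held the letters. The 29 members had 45 windows, and all 27305 genes had 35116. Per window, CCAAT was in 76.2% of 21 sterol windows and 45.8% of 24 fatty acid windows, against 34.6% of all windows. GGGCGG was in 36 of the 45 member windows and in 15786 of all 35116. The E-box CACGTG was in 10.3% of member genes against 8.77% of all, and TCACNCCAC, a short form of the sterol response element, in 1 member (ACSL1, 3.45%) against 1.39%. TTGCATCA, a word bound by ATF4, was in 0 of 29 members against 1.08% of all genes. A match is a description of letters and not a site.

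Shown here are the 150 bases before the start of TM7SF2, which had the largest rise at 72 h, and of IDI1 and MSMO1, the sterol steps that rose at 6 h, with CCAAT and GGGCGG in capitals on either strand (ATTGG and CCGCCC on the other).
IDI1: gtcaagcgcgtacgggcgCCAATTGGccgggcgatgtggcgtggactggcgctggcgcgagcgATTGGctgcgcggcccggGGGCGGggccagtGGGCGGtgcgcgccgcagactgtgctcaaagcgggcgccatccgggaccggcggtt
MSMO1: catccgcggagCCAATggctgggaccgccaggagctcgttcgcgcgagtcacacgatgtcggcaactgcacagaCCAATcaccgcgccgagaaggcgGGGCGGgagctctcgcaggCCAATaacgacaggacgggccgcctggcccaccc
TM7SF2: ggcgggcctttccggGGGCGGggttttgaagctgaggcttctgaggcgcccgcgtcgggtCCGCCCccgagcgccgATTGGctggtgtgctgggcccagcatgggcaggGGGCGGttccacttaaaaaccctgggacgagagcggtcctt
They lie at chr10:1048887-1049036 on the minus strand, chr4:165327519-165327668 on the plus strand and chr11:65111722-65111871 on the plus strand. The IDI1 stretch holds 3 CCAAT matches, of which 2 overlap each other on opposite strands, and 2 of GGGCGG. The MSMO1 stretch holds 3 CCAAT and 1 GGGCGG, and the TM7SF2 stretch 1 CCAAT and 3 GGGCGG. IDI1 has 3 windows, and the one shown, that of a single start, was chosen for its number of CCAAT and GGGCGG matches. Over their whole length, 2 of these 3 windows held CCAAT and 3 held GGGCGG.

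After 6 h of BRD7552, 3 of the 27 tested members rose against DMSO and 0 fell. They were IDI1, MSMO1 and SCD. Calls were made in a limma fit over all 12678 genes at a p below 0.05 after Benjamini-Hochberg adjustment, and 0.473% of genes were called, 0.363% higher and 0.110% lower. Of all genes called 23.3% were lower, and 10.8% with arrays centred on their medians. The sterol steps held 2 of the 3 calls among 17 genes, and the fatty acid steps 1 among 10. At an unadjusted p below 0.05, 12 of the 27 members were higher and 0 lower, against 332 higher and 250 lower of all genes. In bulk RNA of this kind, less RNA per cell and fewer cells of a type cannot be told apart. Arrays of the 6 h group lay wholly above those of DMSO for 14 of the 27 members (51.9%) and wholly below for 0, where 6.26% of all genes lay above and 5.94% below (12.2% in all). Among sterol steps this was 11 of 17 (64.7%), and among fatty acid steps 3 of 10 (30.0%). The median log2 change was 0.17 over the sterol steps, 0.048 over the fatty acid steps and -0.00095 over all genes tested. Without DMSO replicate 1 the fatty acid median was 0.026. Within the sterol steps the median was 0.21 over the ring steps with their carrier, all 10 of them positive, and 0.026 over the mevalonate steps. Of all 12678 genes tested, 6279 were positive at 6 h.

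At 72 h, 6 of the 27 members rose against DMSO and 4 fell, while 8.33% of all genes tested rose and 18.3% fell (26.6% called). Of all genes called 68.7% were lower, and 54.3% after quantile normalization or 52.5% after cyclic loess. The risers were ACAT2, IDI1, LSS, TM7SF2, MSMO1 and DHCR7, all sterol steps. PMVK, SQLE and HSD17B7 of the sterol steps fell, and so did ACSL1, the only fatty acid step called. Arrays of the 72 h group lay wholly above DMSO for 7 members and wholly below for 10 (63.0% in all), where 12.0% of all genes lay above and 24.9% below (36.9% in all). The median log2 change was 0.090 over the sterol steps, -0.049 over the fatty acid steps and -0.062 over all genes. With each gene taken as the mean of all its probe sets, the sterol median became -0.076. Without 72 h replicate 1 it was 0.060, and the fatty acid median was -0.074 without DMSO replicate 1.

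Between the times, 3 members were higher at 72 h than at 6 h and 8 were lower, while 7.28% of all genes were higher and 16.7% lower (24.0% called). Of all genes called 69.6% were lower, and 53.2% after quantile normalization or 51.8% after cyclic loess. ACAT2, LSS and TM7SF2 were the higher ones. PMVK, SQLE, MSMO1, HSD17B7, EBP, STARD4, SCD and ACSL1 were the lower ones. All 10 fatty acid steps had a negative change, as had 7940 of all 12678 genes tested, and ACLY was at -6.4e-05. Of the 10, 2 were called. Their median was -0.15 against -0.11 over the sterol steps and -0.060 over all genes. Arrays did not overlap for 3 members that were higher and 10 that were lower (48.1% in all), where 10.7% of all genes were higher and 22.9% lower (33.7% in all). The 3 comparisons share their arrays in pairs, so their values stand side by side and are not independent of each other. In all, 13 of the 27 tested members were called in at least 1 comparison and 14 in none.

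**Figure D1:**
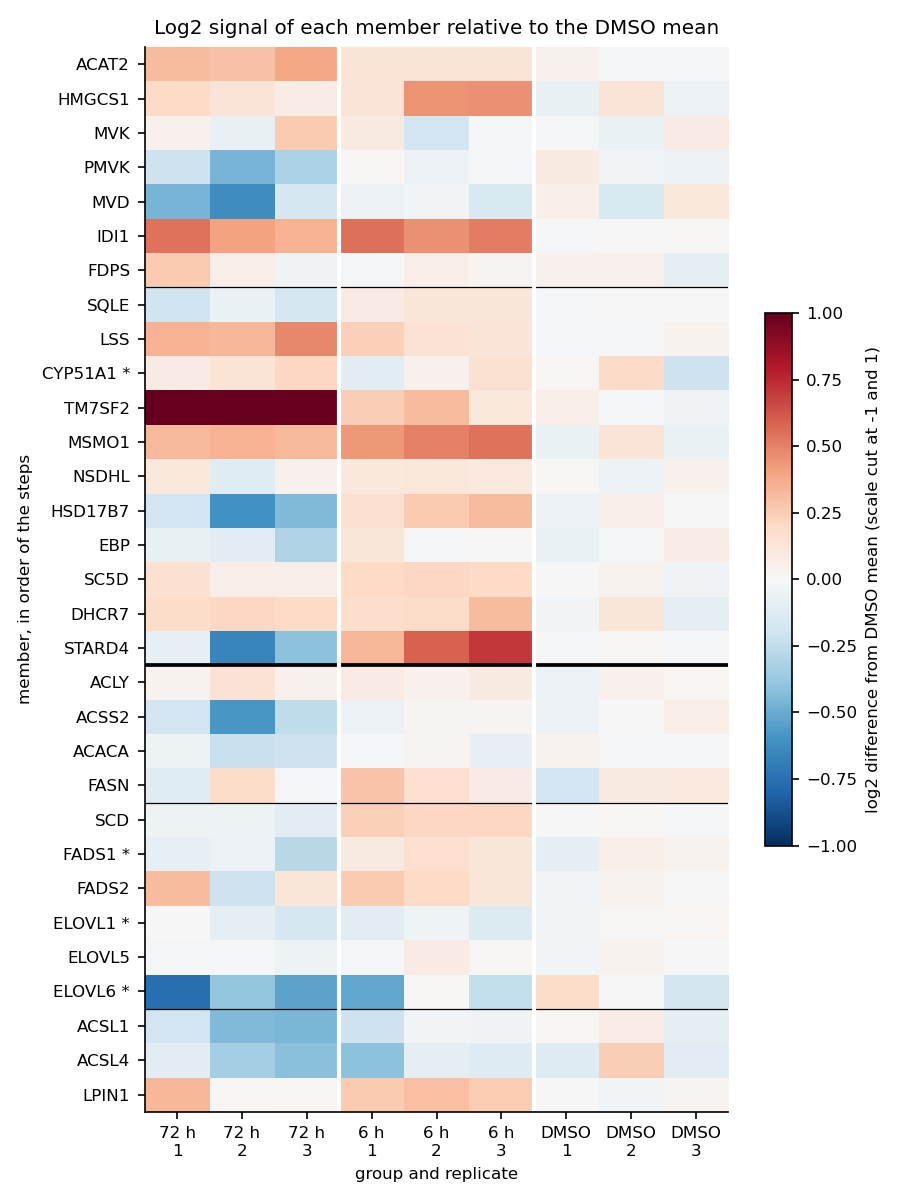
Log2 signal of each member on each array minus its DMSO mean, with columns for the 3 arrays at 72 h, 6 h and DMSO and rows ordered by role. An asterisk marks members read outside the gene table, and the colour scale ends at 1 log2 unit in each direction, which TM7SF2 passes at 72 h. Most sterol ring rows are above DMSO at 6 h, and rows of both directions stand beside each other at 72 h.

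The medians were also taken array by array. Over the sterol steps, the median difference from the DMSO mean was 0.15, 0.057 and 0.062 on the 72 h arrays, 0.14, 0.15 and 0.13 on the 6 h arrays and -0.010, -0.0028 and -0.014 on the DMSO arrays. All 6 treated arrays were above all 3 DMSO arrays. Over the fatty acid steps it was -0.053, -0.13 and -0.075 at 72 h, 0.038, 0.064 and 0.056 at 6 h and -0.030, 0.036 and -0.0055 in DMSO. The 72 h arrays lay below the others. The 6 h arrays lay above the rest by little, with a lowest value of 0.038 against a highest DMSO value of 0.036. The DMSO arrays are measured from their own mean, which draws them towards it. Over all genes tested the median log2 change was -0.062 at 72 h and -0.00095 at 6 h. All-gene medians were not taken array by array.

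**Figure D2:**
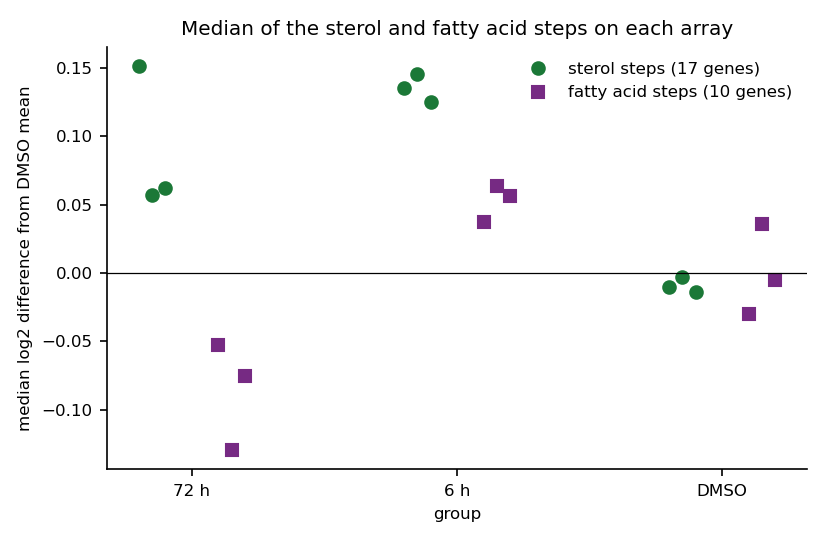
Median log2 difference from the DMSO mean on each array (points), over 17 sterol steps and 10 fatty acid steps, for 72 h, 6 h and DMSO. Sterol medians at 6 h sit between 0.13 and 0.15, and fatty acid medians at 72 h between -0.13 and -0.053.

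Among the mevalonate steps, IDI1, the isomerase that interconverts the isoprenoid diphosphates at the start of chain building, had the largest rise. It gave 1158, 1051 and 1009 at 72 h, 1166, 1089 and 1136 at 6 h and 788, 793 and 803 in DMSO. All treated arrays lay above all DMSO arrays. The log2 change was 0.51 ± 0.053 (SE) at 6 h, 1.42-fold (adjusted p = 0.000152), and 0.43 at 72 h, 1.35-fold (adjusted p = 3.18e-05). The times did not differ beyond the test's threshold (-0.077, adjusted p = 0.331). A further probe set gave 1076, 1106 and 1029.7 at 72 h, 1176, 1145 and 1075 at 6 h and 777, 778 and 785 in DMSO, the same picture. Both may share probes with related sequences, as their identifiers mark, and a dimmer one changed by -0.22 at 72 h and was not called. With the mean over all probe sets the IDI1 calls at both times were lost.

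ACAT2, the cytosolic thiolase that joins acetyl-CoA units, gave 637, 625 and 668 at 72 h, 562 on each 6 h array and 527, 503 and 505 in DMSO. The groups stood in steps without overlap, but the equal 6 h values leave no spread within that group, so the estimated spread can be too small. In the fit over all probe sets the difference between the times had an adjusted p of 0.0511 and was not called. The log2 change was 0.14 at 6 h (adjusted p = 0.802) and 0.33 ± 0.052 (SE) at 72 h, 1.26-fold (adjusted p = 0.000267), and 72 h exceeded 6 h by 0.19 (adjusted p = 0.0131), which became 0.18 (adjusted p = 0.0685) without 72 h replicates 2 and 3. PMVK, the phosphomevalonate kinase, moved the other way with 474, 398 and 439 at 72 h, 552, 525 and 540.0 at 6 h and 582, 538 and 525 in DMSO. All 72 h arrays were below the rest, a log2 change of -0.33 ± 0.068 (SE) against DMSO (adjusted p = 0.00225) and -0.31 against 6 h (adjusted p = 0.00448). Without 72 h replicates 2 and 3 the changes were -0.21 (adjusted p = 0.0758) against DMSO and -0.19 (adjusted p = 0.119) against 6 h, and both calls were lost.

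HMGCS1, which makes HMG-CoA, was not called by the brighter of its probe sets. That one gave 139, 133 and 128 at 72 h, 133, 166 and 166 at 6 h and 115, 133 and 117 in DMSO (log2 changes 0.14 and 0.35, adjusted p = 0.407 at 72 h and 0.455 at 6 h). The dimmer one gave 65.2, 45.3 and 45.6 at 72 h, 103, 112 and 99.7 at 6 h and 77.4, 74.7 and 70.5 in DMSO. There the 72 h arrays were lowest and the 6 h arrays highest, with -0.53 ± 0.14 (SE) at 72 h against DMSO (adjusted p = 0.0332) and -1.03 between the times (adjusted p = 0.000701), adjusted over all 54675 probe sets.

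The other mevalonate steps passed no test. MVK, mevalonate kinase, gave 159.9, 147 and 186 at 72 h, 165, 135 and 153 at 6 h and 153, 148 and 164 in DMSO. FDPS, which makes farnesyl diphosphate, gave 1282, 1113 and 1039.6 at 72 h, 1055, 1116 and 1090.4 at 6 h and 1102, 1102 and 1001 in DMSO. In both genes the 3 groups overlapped. MVD, the decarboxylase that makes isopentenyl diphosphate, was dim and gave 20.2, 18.1 and 24.7 at 72 h, 26.8, 27.4 and 25.1 at 6 h and 28.8, 25.1 and 29.9 in DMSO. All its 72 h arrays were lowest, and its change of -0.42 had an adjusted p of 0.0519.

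Among the ring steps, TM7SF2, a sterol reductase that acts after lanosterol demethylation, had the largest change of all members. Its signal was 184, 155 and 141 at 72 h, 71.3, 75 and 64.6 at 6 h and 62.6, 59.2 and 58.7 in DMSO. The 72 h arrays stood far above the other 6. At 72 h the log2 change was 1.40 ± 0.12 (SE), 2.64-fold with a 95% interval of 2.21 to 3.15 (adjusted p = 9.69e-07), and 72 h exceeded 6 h 2.26-fold (adjusted p = 7.6e-06). At 6 h the change was 0.22 (adjusted p = 1), although the 6 h arrays too lay above all DMSO arrays. The 72 h calls held under every alternative tried for this gene.

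MSMO1, an oxidase that acts in the removal of sterol methyl groups, rose at both times. It gave 956, 972 and 956 at 72 h, 1033, 1082 and 1115 at 6 h and 730.3, 836 and 731 in DMSO. The treated arrays did not overlap with DMSO, and the 6 h arrays were the highest. The log2 change was 0.49 ± 0.056 (SE) at 6 h, 1.41-fold (adjusted p = 0.00029), and 0.33 at 72 h, 1.26-fold (adjusted p = 0.000534). The 72 h value was lower than the 6 h one by a log2 change of -0.16 (adjusted p = 0.0471), a call that was lost under 15 alternatives, among them leaving out any 1 of the 72 h arrays.

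LSS, which closes the ring to lanosterol, gave 390.2, 385 and 429 at 72 h, 363, 339.6 and 335 at 6 h and 303, 304 and 314 in DMSO. The groups did not overlap. It rose 1.31-fold at 72 h (log2 0.39 ± 0.067 SE, adjusted p = 0.00059), exceeded 6 h by 0.21 (adjusted p = 0.0294) and was not called at 6 h (0.17, adjusted p = 0.822). A dimmer probe set changed by 0.0022 at 72 h, and the 72 h call was lost with the mean over all probe sets. The call between the times was lost on leaving out 6 h replicate 2 or 3 or 72 h replicate 3. DHCR7, the reductase of the last step to cholesterol, gave 511, 519 and 516 at 72 h, 508, 512 and 559 at 6 h and 442, 489 and 421 in DMSO. All treated arrays were above DMSO, with 0.20 ± 0.065 (SE) at 72 h (adjusted p = 0.0357) and 0.23 at 6 h (adjusted p = 0.339). In the fit over all probe sets the 72 h change had an adjusted p of 0.116 and was not called. A dimmer DHCR7 probe set changed by 0.052 at 72 h (adjusted p = 0.837) and by 0.26 at 6 h, both uncalled. The 72 h call of DHCR7 was lost under 14 alternatives, among them leaving out DMSO replicate 1 or 3, 6 h replicate 2 or 72 h replicate 2 or 3, and without both of these last it was 0.18 (adjusted p = 0.204).

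**Figure D3:**
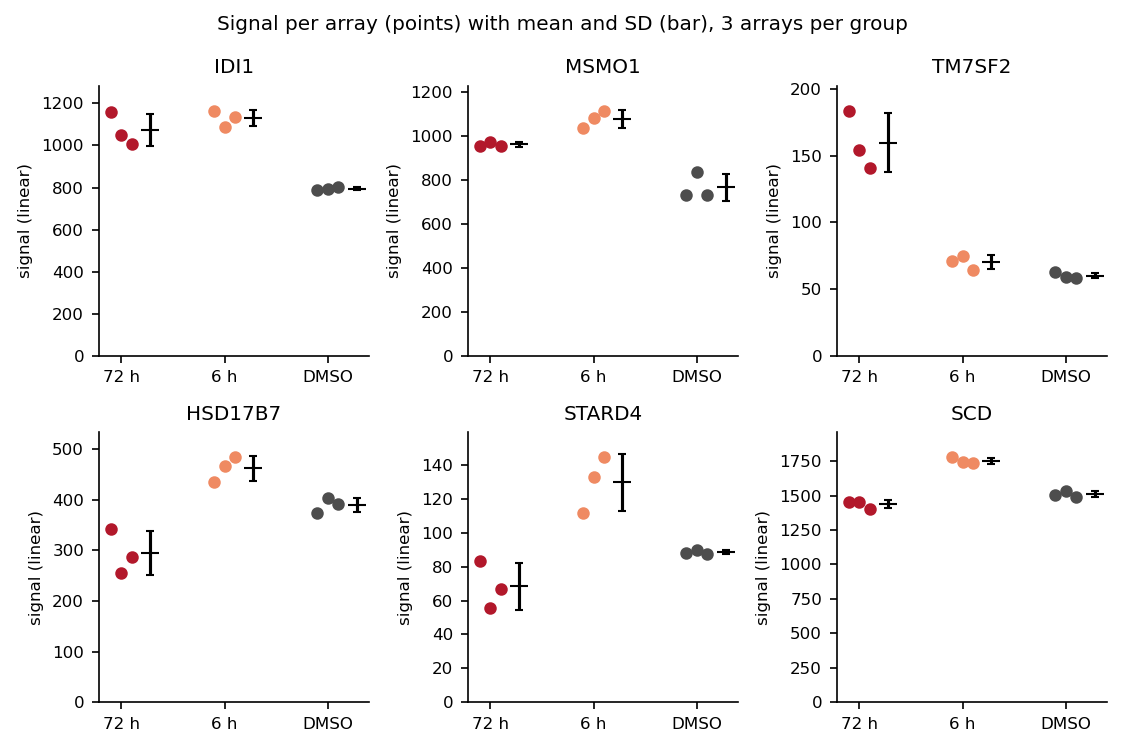
Linear signal on each array (points) with group mean and SD (bars) for IDI1, MSMO1, TM7SF2, HSD17B7, STARD4 and SCD at 72 h, 6 h and DMSO. TM7SF2 is high on the 72 h arrays, IDI1 and MSMO1 are high at both times, and HSD17B7, STARD4 and SCD are highest at 6 h.

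HSD17B7, the sterol ketone reductase, gave 341, 256 and 286 at 72 h, 435, 466 and 484 at 6 h and 374, 402 and 391 in DMSO. The 6 h arrays were highest and the 72 h arrays lowest, without overlap. It fell at 72 h to 0.752-fold of DMSO (log2 -0.41 ± 0.089 SE, adjusted p = 0.00304) and lay -0.66 below 6 h (adjusted p = 0.000104), while its 6 h change of 0.25 was not called (adjusted p = 0.687). Its probe set may also read related sequences, and the call against DMSO was lost without 72 h replicates 2 and 3 (-0.19, adjusted p = 0.125). STARD4, which carries sterol between membranes, had the same order, with 83.2, 55.7 and 66.5 at 72 h, 111, 133 and 144 at 6 h and 87.8, 89.6 and 87.4 in DMSO. Only the comparison of times was called, at 0.524-fold (log2 -0.93, adjusted p = 0.000287). Against DMSO the change was 0.55 ± 0.14 (SE) at 6 h (adjusted p = 0.222) and -0.39 at 72 h (adjusted p = 0.0586).

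SQLE, squalene epoxidase, gave 718, 788 and 730.5 at 72 h, 873, 899 and 899 at 6 h and 819, 828 and 828 in DMSO by its brightest probe set. The order was again 6 h, DMSO, 72 h. The changes were -0.15 ± 0.049 (SE) at 72 h (adjusted p = 0.0362, a call lost under 17 alternatives, among them leaving out any 1 DMSO array), 0.11 at 6 h (adjusted p = 1) and -0.26 between the times (adjusted p = 0.00156). Another probe set gave 50.2, 37.7 and 38.6 at 72 h, 77.5, 80.2 and 78.4 at 6 h and 71.3, 79.9 and 72 in DMSO, a log2 change of -0.83 ± 0.12 (SE) at 72 h (adjusted p = 0.00114). The remaining pair changed by 0.014 and 0.031, so the probe sets of this gene differed in size of change.

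CYP51A1, the lanosterol demethylase, showed the same split on probe sets shared with LRRD1. The brighter gave 889, 926 and 967 at 72 h, 777, 866 and 934 at 6 h and 850.0, 959.6 and 726 in DMSO, overlapping in all groups (0.14 at 72 h, adjusted p = 0.474). The other gave 266, 274 and 275 at 72 h, 387, 383 and 380.4 at 6 h and 348, 351 and 351 in DMSO. It fell at 72 h by 0.37 on the log2 scale (SE 0.060, adjusted p = 0.00224) and differed between the times by -0.50 (adjusted p = 0.00034).

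The remaining ring steps gave 1 call in all. EBP, a sterol isomerase, gave 603, 588 and 517 at 72 h, 692, 629.5 and 637 at 6 h and 609, 632 and 669 in DMSO, and was called only between the times (-0.20, adjusted p = 0.041), a call lost under 18 alternatives, among them leaving out any 1 DMSO or 6 h array. SC5D, a sterol desaturase, gave 1006, 942 and 945 at 72 h, 1042, 1044 and 1039.8 at 6 h and 905, 928 and 883 in DMSO. Treated arrays of SC5D were all above DMSO, but its changes of 0.20 at 6 h (adjusted p = 0.08) and 0.090 at 72 h (adjusted p = 0.165) were not called. NSDHL, a sterol dehydrogenase, gave 565, 481 and 541 at 72 h, 564, 567 and 561 at 6 h and 529, 504 and 541 in DMSO and was called in no comparison.

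**Figure D4:**
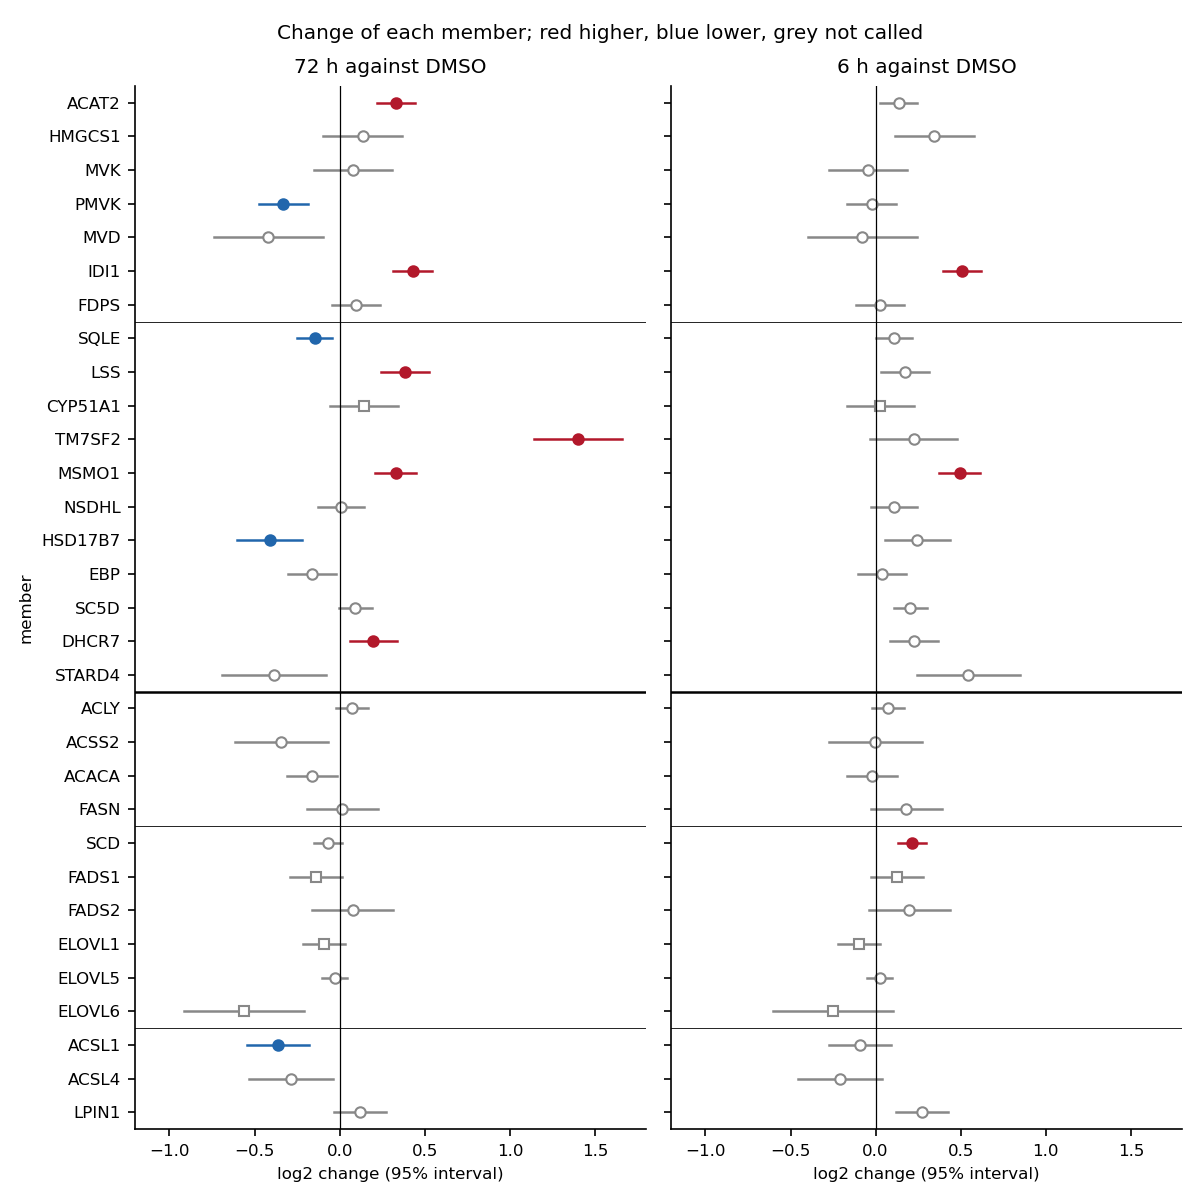
Log2 change of each member against DMSO with its 95% interval (bars), at 72 h (left) and 6 h (right), and squares for members read from the fit over all probe sets. TM7SF2 at 1.40 stands apart at 72 h, and at 6 h 14 of the 17 tested sterol steps lie above 0.

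The supply and chain steps of fatty acid synthesis passed no test in any comparison by their brightest probe sets. FASN, the fatty acid synthase, gave 247, 305 and 267 at 72 h, 328, 302 and 285 at 6 h and 236, 286 and 287 in DMSO. ACACA, the carboxylase that makes malonyl-CoA, gave 319.5, 285 and 287 at 72 h, 329, 338 and 314 at 6 h and 341, 327 and 327 in DMSO (-0.16 at 72 h, adjusted p = 0.102). The 72 h arrays of ACACA lay below all DMSO arrays but overlapped with 6 h, and FASN overlapped among all groups. ACLY, which makes cytosolic acetyl-CoA from citrate, gave 1533, 1658 and 1542 at 72 h, 1592, 1546 and 1593 at 6 h and 1438, 1546 and 1516 in DMSO. ACSS2, which makes it from acetate, gave 56.9, 43.4 and 54.6 at 72 h, 62.3, 66.4 and 66.2 at 6 h and 62.3, 65 and 67.8 in DMSO. Its 72 h arrays were the lowest (-0.34, adjusted p = 0.0619). A dimmer probe set of ACLY was lower at 72 h than at 6 h (-0.30, adjusted p = 0.0412).

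SCD, the desaturase that makes oleate, had 4 probe sets above the filter that disagreed in size. The brightest gave 1456, 1456 and 1405 at 72 h, 1779, 1739.5 and 1738 at 6 h and 1506, 1531 and 1490.3 in DMSO. The 6 h arrays were highest and the 72 h arrays lowest, without overlap. It rose 1.16-fold at 6 h (log2 0.22 ± 0.038 SE, adjusted p = 0.0179), was not called at 72 h (-0.069, adjusted p = 0.214) and was lower at 72 h than at 6 h (-0.28, adjusted p = 0.000104). The 6 h call was lost on leaving out any 1 of the 6 DMSO and 6 h arrays, on centring arrays on their medians and with the mean over all probe sets.

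A further SCD probe set gave 331, 361 and 361 at 72 h, 795, 789 and 707 at 6 h and 689, 750.3 and 698 in DMSO. All 72 h arrays lay far below the other 6, at 0.493-fold of DMSO (log2 -1.02 ± 0.067 SE). The other probe sets changed by -0.89 ± 0.098 (SE) and -0.87 ± 0.12 (SE) at 72 h (adjusted p = 0.00011 and 0.000629). Between the times these 3 differed by -1.12, -1.14 and -1.04, all called. All 4 probe sets of SCD were thus lower at 72 h than at 6 h, and all 4 were lower than in DMSO, 3 of them past the test's threshold.

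FADS1, the delta-5 desaturase of long polyunsaturated chains, gave 586, 594 and 511 at 72 h, 658, 695 and 675 at 6 h and 580.2, 647 and 634 in DMSO on a probe set shared with MIR1908. It was lower at 72 h than at 6 h (-0.26, adjusted p = 0.0387, a call lost under 12 alternatives, among them leaving out any 1 of the 6 h arrays) and not called against DMSO (-0.14 at 72 h, adjusted p = 0.316). The other FADS1 probe sets differed between the times by -0.38 (adjusted p = 0.00548) and -0.23 (adjusted p = 0.0659). At 72 h against DMSO they changed by -0.22 and -0.20, uncalled. FADS2, its partner desaturase, gave 218, 152 and 191 at 72 h, 211, 202 and 191 at 6 h and 172, 180.3 and 175 in DMSO, and was not called. The elongases were not called. ELOVL5 gave 5291, 5306 and 5197 at 72 h, 5302, 5691 and 5401 at 6 h and 5264, 5496 and 5357 in DMSO, and its groups overlapped. ELOVL1, on a probe set shared with MIR6734, gave 714, 668 and 636 at 72 h, 661, 693 and 652 at 6 h and 700.2, 719.6 and 727 in DMSO. ELOVL6, which elongates palmitate, lay below the filter on its mean over all arrays, with 10.5, 13.5 and 12.2 at 72 h, 12.3, 17.8 and 14.9 at 6 h and 20, 17.6 and 15.6 in DMSO (-0.56 at 72 h, adjusted p = 0.0552). Levels of different genes are not compared here, since probe sets differ in response.

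ACSL1, which activates long chains with coenzyme A, gave 286, 240.2 and 239 at 72 h, 283, 319.9 and 319 at 6 h and 331, 344 and 306 in DMSO. It fell at 72 h by 0.36 on the log2 scale (SE 0.086, adjusted p = 0.00584) and was lower than at 6 h by -0.27 (adjusted p = 0.0324), where the arrays overlap. A dimmer probe set gave 84.5, 63.1 and 58 at 72 h, 117, 125 and 105 at 6 h and 122, 121 and 124 in DMSO, with -0.86 at 72 h (adjusted p = 0.00133). Without 72 h replicates 2 and 3 the brighter one changed by -0.19 against DMSO (adjusted p = 0.205) and by -0.10 against 6 h (adjusted p = 0.557), and both calls were lost. The call against 6 h was also lost on leaving out 6 h replicate 2 or 3, or 72 h replicate 2 or 3, alone. ACSL4, its relative that prefers arachidonate, gave 277, 236 and 223 at 72 h, 225, 279 and 272 at 6 h and 272, 354 and 275 in DMSO, uncalled in any comparison. LPIN1, the phosphatidate phosphatase, gave 759, 608 and 613 at 72 h, 726, 743 and 721 at 6 h and 602, 594 and 617 in DMSO, and its 6 h change of 0.27 was not called (adjusted p = 0.226). Without 72 h replicates 2 and 3, which leaves 1 array at 72 h, the 72 h changes were 0.33 for LPIN1, 0.26 for FDPS and 0.31 for FADS2. The limma fit without 72 h replicate 1 newly called some members lower at 72 h than in DMSO. These were STARD4 (-0.54, adjusted p = 0.00534), ACSS2 (-0.42, 0.0184), ACACA (-0.22, 0.0156), ACSL4 (-0.38, 0.0326) and EBP (-0.21, 0.0385). That fit also called SC5D (0.20, adjusted p = 0.0376) and LPIN1 (0.27, adjusted p = 0.011) higher at 6 h.

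At 72 h the probe sets of a member often differed. In the fit over all 54675 probe sets, 6 of the 71 member probe sets were higher at 72 h than in DMSO and 10 lower (22.5% called), where 2.05% of all were higher and 5.38% lower (7.43% called). At 6 h it was 3 higher and 0 lower (4.23% called), where 0.0677% of all were higher and 0.00549% lower (0.0732% called). Between the times it was 1 higher and 15 lower (22.5% called), where 1.59% of all were higher and 4.82% lower (6.42% called). These backgrounds include probe sets below the filter on dim signals, while 61 of the 71 member probe sets lay above it. Among genes above the filter, 26.6% were called at 72 h against DMSO. The part of brightness in these shares was not tested. Of 18 members with several probe sets above the filter, 4 (22.2%) were lower at 72 h by another probe set only, namely CYP51A1, HMGCS1, SCD and SQLE, as were 7.46% of 6942 genes. The brightest probe set of SQLE, called lower in the fit over genes, had an adjusted p of 0.117 in this fit over probe sets. Of 31 dimmer member probe sets, 74.2% had a lower change at 72 h than the brightest of their gene, with a median gap of -0.20, and 25.8% differed from it by over 0.5. Over all genes these were 60.1%, -0.049 and 6.04%. At 6 h the gaps were small, with a median of 0.0087 over members and 0.0033 over all genes. The ACTB ratio of 3′ to 5′ signal given above was highest at 72 h, while that of GAPDH overlapped between 72 h and DMSO. The part of RNA quality in these gaps was not tested.

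**Figure D5:**
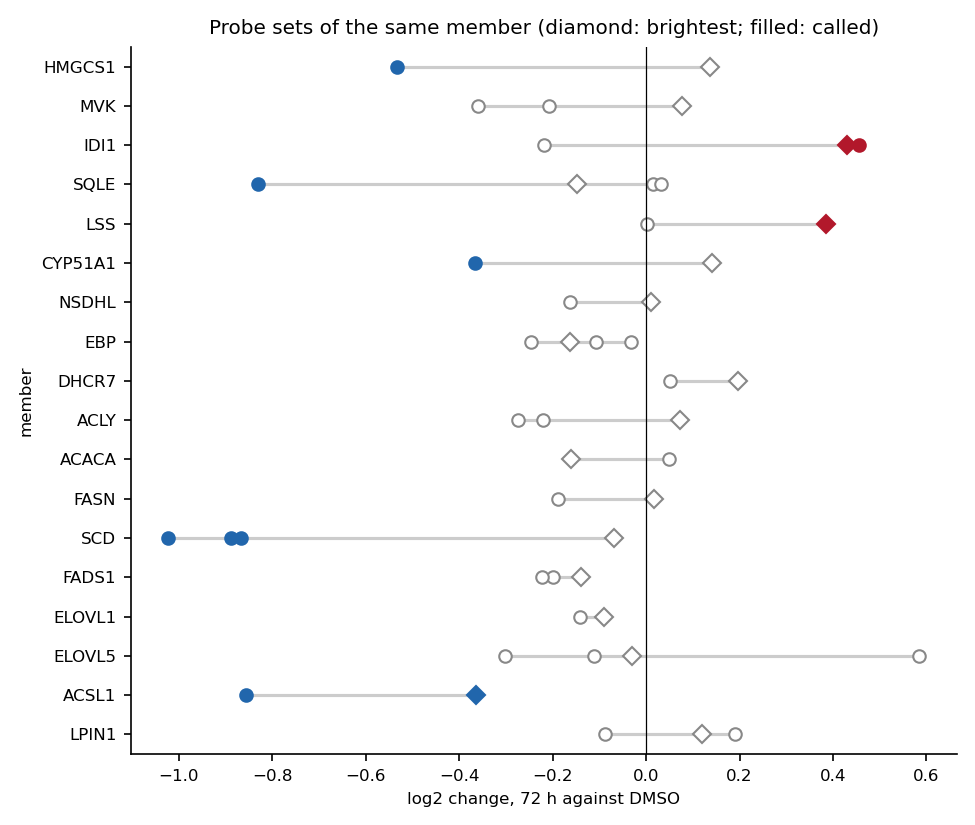
Log2 change at 72 h against DMSO of each probe set above the filter, for members with several, with a diamond for the brightest and filled symbols for called ones. The probe sets of SCD run from -1.02 to -0.069 and those of SQLE from -0.83 to 0.031.

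Other genes of lipid metabolism were read from lists chosen by name, and their counts stand beside 8.33% of all genes tested higher and 18.3% lower at 72 h, and 0.473% called at 6 h. Of 7 tested genes of SREBP control, 1 rose at 6 h (INSIG1, the retention protein of the pathway, 2.01-fold) and 3 rose at 72 h with 0 falling. The larger of these were SREBF1, which encodes an SREBP, with a log2 change of 1.15 ± 0.11 (SE), and INSIG1 with 0.85 ± 0.12 (SE). Of 8 genes of sterol esterification and transport, 4 fell at 72 h and 0 rose, among them LIPA, the lysosomal acid lipase (-0.41 ± 0.038 SE), and SOAT1, which esterifies cholesterol (-0.34 ± 0.089 SE). Of 8 genes of glycerolipid synthesis and turnover, 4 fell at 72 h and 0 rose, among them MGLL, the monoacylglycerol lipase (-1.72 ± 0.13 SE), and GPAM, a glycerol phosphate acyltransferase (-0.38 ± 0.087 SE). Of 13 genes of fatty acid oxidation, 5 rose and 1 fell at 72 h. The electron transfer genes ETFDH (0.37 ± 0.12 SE) and ETFB (0.37 ± 0.070 SE) were the larger ones. At 6 h limma called 0 genes of these last 3 lists, and at an unadjusted p below 0.05 it was 1 gene, in fatty acid oxidation.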

How the data were processed

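Biotin-labelled total RNA of 9 PANC-1 samples was read on Affymetrix arrays, 3 per group. The authors deposited intensity per probe set on a linear scale. MAS5 was used, per the submitters' processing notes, with a version and scaling not given in the sources used here. No batch is labelled. Signals were taken as log2 without further normalization. Each gene was represented by its brightest probe set with 1 symbol, and genes under a mean log2 signal of 4.15 (linear 17.8) were left out. limma 3.58.1 in R 4.3.3 (lmFit and eBayes with trend) was fitted to all 9 arrays with group as the only term, leaving 6 residual degrees of freedom, and p-values were adjusted by Benjamini-Hochberg over all genes, or over all 54675 probe sets where so stated. A gene was called at an adjusted p below 0.05. The fit was tested on simulated data with known changes. All 33 members are named whatever their p. Members, lists and tests were chosen with earlier results of these data known, and lists are described by counts and medians with no test. Other normalizations, filters, weights, a pseudocount of 16 and leaving out each array were tried. For 59.2% of probe sets at least 2 arrays held the same value, which is unusual for MAS5, so how the signal was summarised is uncertain and within-group spread can be too small for some genes. The number of arrays limits the precision.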

Additional observations from a re-analysis of the deposited data

Results flagged for a closer look

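For 12 members the signal after 72 h of BRD7552 differed from that after 6 h by limma's test of 72 h minus 6 h. The threshold was an adjusted p below 0.05, with signals on the log2 scale. Of all genes tested 24.0% were called in this comparison, 7.28% higher and 16.7% lower, and of all probe sets 6.42%. The higher ones at 72 h were TM7SF2 at 1.18, LSS at 0.21 and ACAT2 at 0.19. The lower ones among sterol steps were STARD4 at -0.93, HSD17B7 at -0.66, PMVK at -0.31, SQLE at -0.26, EBP at -0.20 and MSMO1 at -0.16. Among fatty acid steps they were SCD at -0.28, ACSL1 at -0.27 and FADS1 at -0.26, the last from the fit over all probe sets. Several of these calls were lost under other settings, EBP under 18, MSMO1 under 15, FADS1 under 12, ACSL1 under 10, LSS under 8, ACAT2 under 2, and PMVK and SQLE under 1 each. The DMSO arrays cancel in this difference, and the labels give them no exposure time. Length of exposure and time in culture therefore cannot be told apart here.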

How the results depend on the processing

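Genes called at 6 h were 60, and 37 with arrays centred on their medians, 23 with the mean over all probe sets, 23 without the mean-variance trend, 211 with array weights, 122 with 1 weight per group and 28 to 71 with 1 array left out (31, 38 and 34 without DMSO replicates 1, 2 and 3, 28 and 34 without 6 h replicates 2 and 3). The 3 members higher at 6 h became 5 after quantile normalization, cyclic loess, with only the 6 arrays compared or without 72 h replicates 2 and 3, 1 with the mean over probe sets, 9 with array weights, 6 with 1 weight per group and 2 to 5 with 1 array left out (5 without 72 h replicate 1). The sterol median at 6 h was 0.14 with the mean over probe sets and 0.14 to 0.18 with 1 array left out, and the fatty acid median 0.026 (without DMSO replicate 1) to 0.068. At 72 h against DMSO, genes called were 2086 with centred arrays and 2294 to 4224 with 1 array left out. The 6 members higher became 3 with the mean over probe sets. The 4 lower became 1 without 72 h replicates 2 and 3 and 3 to 8 with 1 array left out (8 without 72 h replicate 1). The sterol median was 0.13 with centred arrays, 0.12 after cyclic loess, -0.076 with the mean over probe sets and 0.15 without 72 h replicates 2 and 3, and the fatty acid median was -0.011 with centred arrays. With 1 array left out these medians were 0.060 (without 72 h replicate 1) to 0.11 and -0.074 (without DMSO replicate 1) to -0.035. Between the times, genes called were 1782 with centred arrays and 1875 without 72 h replicates 2 and 3. The 3 higher members became 1 with centred arrays. The 8 lower became 4 with centred arrays or without 72 h replicates 2 and 3, 5 without the filter or with 1 weight per group, and 5 to 12 with 1 array left out (5 without 6 h replicate 2, 6 h replicate 3 or 72 h replicate 2). The sterol median was -0.076 after quantile normalization, -0.080 after cyclic loess, -0.16 with the mean over probe sets, -0.051 without 72 h replicates 2 and 3 and -0.15 to -0.095 with 1 array left out, and the fatty acid median -0.087, -0.083 after these normalizations, -0.043 without 72 h replicates 2 and 3 and -0.22 to -0.10 with 1 array left out. The cause was not tested. The fits with 1 weight per group and without 72 h replicates 2 and 3 were chosen after seeing the data, and the second assumes that the lone array varies like the other groups. Replicate numbers did not pair the samples (correlation of same-numbered deviations -0.26 to 0.20, with the own number best in 5 of 18 cases). With the replicate number as a block, genes called were 54 at 6 h, 3193 at 72 h and 2840 between the times. Of the values per member under the alternatives, 1932 kept their side of the threshold, 55 passed it newly, 113 lost it and 0 changed the sign of a call.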

Other observations

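Genes that use isoprenoids or supply NADPH to these pathways were also read from lists chosen by name, and their counts at 72 h stand beside 8.33% of all genes tested higher and 18.3% lower. IDH1, the cytosolic isocitrate dehydrogenase that yields NADPH, rose at 6 h by a log2 change of 0.29 ± 0.060 (SE, adjusted p = 0.0482) and at 72 h by 0.66 ± 0.060 (SE, adjusted p = 1.7e-06), the larger of them. Of 4 NADPH genes tested, 1 rose and 1 fell at 72 h, the second being MTHFD1 of folate metabolism (-0.13 ± 0.038 SE). Of 10 genes that use isoprenoids, 1 rose and 2 fell at 72 h. PDSS1, which makes the side chain of coenzyme Q, had the largest change of these (-0.69 ± 0.083 SE), and GGPS1, which makes geranylgeranyl diphosphate, rose by 0.37 ± 0.058 (SE).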
